A study of Saccharomyces cerevisiae with 8 samples.

Results

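Removal of the poly(A)-binding protein Nab2 from the nucleus was compared with a matched drug treatment of cells whose Nab2 carried no tag, after 30 min of rapamycin. The comparison set 2 libraries of the Nab2 anchor-away strain against 2 of the control strain, 4 of the 8 libraries of the series, and covered all 7659 features used in the count table. Of these, 6190 had enough counts to be tested. In anchor-away cells 81 features rose and 295 fell, so that 6.07% of the tested features passed an adjusted p of 0.05 in edgeR's quasi-likelihood test.

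The anchor-away strain (Y3284) carried the tor1-1 allele, an fpr1 deletion marked with LEU2, 2 copies of FKBP12 fused to Rpl13a at a locus marked with TRP1, and NAB2 fused to FRB with a HIS marker. The control strain (Y2615) carried the same tor1-1, fpr1 and RPL13A-2xFKBP12 alleles and an untagged NAB2. The label of the control strain reads MATa, whereas that of the anchor-away strain gives MAT with no letter. Both strains of Saccharomyces cerevisiae grew in YPAD at 30 °C and received rapamycin at 1 µg/ml for 30 min. The same anchor-away strain without rapamycin (0 min) and after 15 min, 2 libraries each, is given beside the comparison where it helps to read a value. Each strain is 1 genotype, with no second isolate, and total RNA was depleted of ribosomal RNA, so that RNAs with and without a poly(A) tail were counted.

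Nab2, an essential zinc-finger protein, coats the poly(A) tails of nuclear RNA. It limits tail length, helps to pack messenger RNA for export and shields new transcripts from nuclear decay. In the anchor-away method, rapamycin bridges the FRB tag to FKBP12 on a ribosomal protein, and the passage of that protein out of the nucleus takes the tagged protein with it. The tor1-1 and fpr1 alleles make growth resistant to rapamycin itself. The exosome and its TRAMP cofactor degrade RNAs in the nucleus, and the Nrd1-Nab3-Sen1 complex ends short transcripts there and hands them over for decay.

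Total counts were 9206919 and 4832946 in the anchor-away 30 min libraries, against 8883058 and 10435063 in the control libraries. Anchor-away replicate 2 and control replicate 1 had 0 counts in 28.2% of features each, against 9.18% in anchor-away replicate 1 and 15.4% in control replicate 2. The 2 anchor-away libraries correlated with r = 0.900 on log2(CPM + 1) and the 2 control libraries with r = 0.933, over features of the same table. CPM is the usual depth-scaled count, taken on the library total after edgeR's TMM factors. The highest correlation between any 2 libraries of the series, 0.990, joined control replicate 2 and 0 min replicate 1, which come from different strains. Leaving out each of the 4 libraries in turn left 116 features called every time, 17 rises and 99 falls. Labels call the libraries biological replicates. The p-values rest on a spread between replicates that was estimated over all 8 libraries and moderated across features, not on the 4 libraries compared alone.

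The window around the start of STE2 is shown because this gene divided the strains and holds a textbook operator, and those of NRD1 and HRP1 because both rose and are known to be held down by early termination. Each window runs from 250 bases before the start codon to 50 bases from it, 300 bases in all, read from RefSeq build R64 and printed 5′ to 3′ on the coding strand. In STE2, a pattern of CATGT, 5 or 6 bases, CC, 6 more bases and GG was searched on either strand, and capitals mark its CATGT and its stretch from CC to GG, as well as TGAAACA on either strand. In NRD1 and HRP1, capitals mark GTAA and GTAG, known as binding letters of Nrd1, and TCTT and CTTG, known for Nab3, on the coding strand.
STE2, chrVI:82330-82629, plus strand: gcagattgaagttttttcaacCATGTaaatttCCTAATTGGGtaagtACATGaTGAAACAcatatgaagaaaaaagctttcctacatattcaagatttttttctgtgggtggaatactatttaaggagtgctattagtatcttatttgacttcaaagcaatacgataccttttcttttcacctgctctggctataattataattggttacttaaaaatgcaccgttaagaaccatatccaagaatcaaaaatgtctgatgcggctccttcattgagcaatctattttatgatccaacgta
NRD1, chrXIV:174266-174565, minus strand: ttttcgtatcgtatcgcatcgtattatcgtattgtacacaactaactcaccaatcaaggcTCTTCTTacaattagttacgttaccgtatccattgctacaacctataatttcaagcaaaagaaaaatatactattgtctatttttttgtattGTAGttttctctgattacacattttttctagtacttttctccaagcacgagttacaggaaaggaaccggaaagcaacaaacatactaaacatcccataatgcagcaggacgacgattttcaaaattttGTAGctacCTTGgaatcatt
HRP1, chrXV:87594-87893, plus strand: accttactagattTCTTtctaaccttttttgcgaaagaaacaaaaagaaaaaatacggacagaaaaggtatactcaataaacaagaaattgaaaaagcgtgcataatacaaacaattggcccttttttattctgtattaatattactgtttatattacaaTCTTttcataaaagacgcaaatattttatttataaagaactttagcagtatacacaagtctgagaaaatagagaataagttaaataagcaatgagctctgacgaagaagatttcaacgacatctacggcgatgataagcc

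The pattern searched in STE2 occurred in 12 of 6001 start windows, 0.2% of them, on either strand. STE2 held 2 overlapping matches, 1 on each strand, and MFA1, MFA2 and STE6 held 1 each. The a-specific genes AGA2 and BAR1 held none. These are letters of the operator where the alpha2 and Mcm1 proteins keep a-specific genes off in alpha cells, and they were chosen with the window in view. CC and GG with 6 bases between occurred in 29.2% of windows and TGAAACA, the pheromone response element, in 7.5%. For the 4-letter motifs, 65.2% of windows held at least as many Nrd1 motifs on the coding strand as NRD1, and 57.5% at least as many Nab3 motifs. For HRP1 the shares were 100% and 76.8%. On the opposite strand 1.08% of windows held at least as many Nrd1 motifs as NRD1 and 20.8% as HRP1, and for Nab3 motifs 56.9% and 5.18%. A match is a description of letters and not of binding.

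The first readings were those of the anchor system. NAB2 (chromosome VII, 278946 to 280523) had 203 and 228 CPM in anchor-away cells, against 120 and 184 CPM in control cells. Both anchor-away values lay above both control values, by 0.50 ± 0.28 on the log2 scale (2 libraries against 2), which did not pass the test (edgeR adjusted p = 0.312). Each ± in this text is an SE from the fit to all 8 libraries. It is the log2 fold change over the square root of the F statistic of the test. The method moves the protein, so the RNA of NAB2 does not show whether Nab2 left the nucleus. RPL13A, which encodes the ribosomal protein of the anchor in both strains, had 117 and 239 CPM in anchor-away cells, against 385 and 445 CPM in control cells. It fell by 1.23 ± 0.31 on the log2 scale (edgeR adjusted p = 0.0235), and this call was lost without anchor-away replicate 1, control replicate 1 or control replicate 2, with log2 values of -0.80, -1.34 and -1.06. TOR1, the target of rapamycin, had 138 and 141 CPM in anchor-away cells, against 130 and 68.7 CPM in control cells, and did not pass (edgeR adjusted p = 0.437). FPR1, deleted in both strains, had 29 and 0 counts in anchor-away cells, against 0 and 4 counts in control cells.

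The strongest contrast between the strains lay in genes of mating type. Cells of mating type alpha make alpha-factor and the receptor for a-factor, and cells of type a make a-factor and the receptor for alpha-factor. AFB1, an alpha-specific gene whose product blocks a-factor, had 232 and 225 CPM in anchor-away cells, against 31.2 and 32.8 CPM in control cells (log2 2.83 ± 0.27, edgeR adjusted p = 3.7e-05, the smallest of all features). SAG1, the agglutinin of alpha cells, had 142 and 185 CPM in anchor-away cells, against 49.2 and 41.6 CPM in control cells (log2 1.85 ± 0.27, edgeR adjusted p = 0.00077). STE3, the a-factor receptor, had 29.6 and 26.9 CPM in anchor-away cells, against 0 and 0.448 CPM in control cells. Its summed counts were 484 in anchor-away and 4 in control libraries, a scaled ratio of 127 with a 95% interval of 49.3 to 468 for counting error only. MF(ALPHA)2, a gene for alpha-factor, had summed counts of 381 in anchor-away and 3 in control libraries, a ratio of 133 with an interval of 45.3 to 649. MF(ALPHA)1, the main alpha-factor gene, had 785 and 1976 CPM in anchor-away cells, against 0 and 9.86 CPM in control cells, and did not pass (edgeR adjusted p = 0.075). In all, 4 of the 5 tested alpha-specific features rose and none fell, against 1.31% rises over all tested features. Both anchor-away libraries lay above both control libraries in all 5, against 23% of all tested features.

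The a-specific genes ran the other way. STE2 (chromosome VI, 82580 to 83875), the alpha-factor receptor whose start window is printed above, had 9.0 and 0.774 CPM in anchor-away cells, against 145 and 115 CPM in control cells. It fell by 4.66 ± 0.79 on the log2 scale (edgeR adjusted p = 0.0029), a ratio of summed counts of 0.0499 (95% interval 0.0408 to 0.0605). AGA2, the binding subunit of a-agglutinin, had 2.14 and 0 CPM in anchor-away cells, against 52.3 and 35.1 CPM in control cells (log2 -5.22 ± 1.29, edgeR adjusted p = 0.022). The AGA2 call was lost without control replicate 1 (log2 -4.96) or control replicate 2 (log2 -5.42). STE6, the exporter of a-factor, and BAR1, the protease that cuts alpha-factor, had all anchor-away values under all control values without passing (edgeR adjusted p = 0.061 and 0.33). Of 6 tested a-specific features 2 fell, none rose, and all 6 had both anchor-away libraries below both control libraries, where 24.2% of all tested features did. The median log2 fold change was -2.36 over the a-specific and 6.80 over the alpha-specific list, against 0.06 over all tested features. With 1 library left out at a time, the a-specific median ran from -2.65 to -2.29 and the alpha-specific median from 5.85 to 10.8.

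These strain genes already stood apart without rapamycin. At 0 min the anchor-away strain had 453 and 390 CPM of AFB1, 33.1 and 78.8 CPM of STE3, and 2.66 and 2.65 CPM of STE2. Only 5 features differed between the 0 min libraries and the control libraries in the same edgeR model, namely STE2, MF(ALPHA)2, SAG1, STE3 and AFB1. Strain and tag cannot be told apart for any feature of the comparison, and the 0 min values show the level that the tagged strain had before the drug. A composite feature of HIS3 and YOR203W had 73.1 and 108 CPM in anchor-away cells, against 13.0 and 35.9 CPM in control cells (log2 1.88 ± 0.44, edgeR adjusted p = 0.016), and 120 and 82.0 CPM at 0 min. The marker of the tag is written HIS with no number. The HIS3/YOR203W call was lost without anchor-away replicate 2 (log2 1.56) or control replicate 1 (log2 1.32), and without every library over 20% zeros (log2 1.01). AGA1, the anchor subunit of a-agglutinin that pheromone induces, is not specific to either type. It had 162 and 65.6 CPM in anchor-away cells, against 4.12 and 16.6 CPM in control cells (log2 3.46 ± 0.66, edgeR adjusted p = 0.0081).

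**Figure D1:**
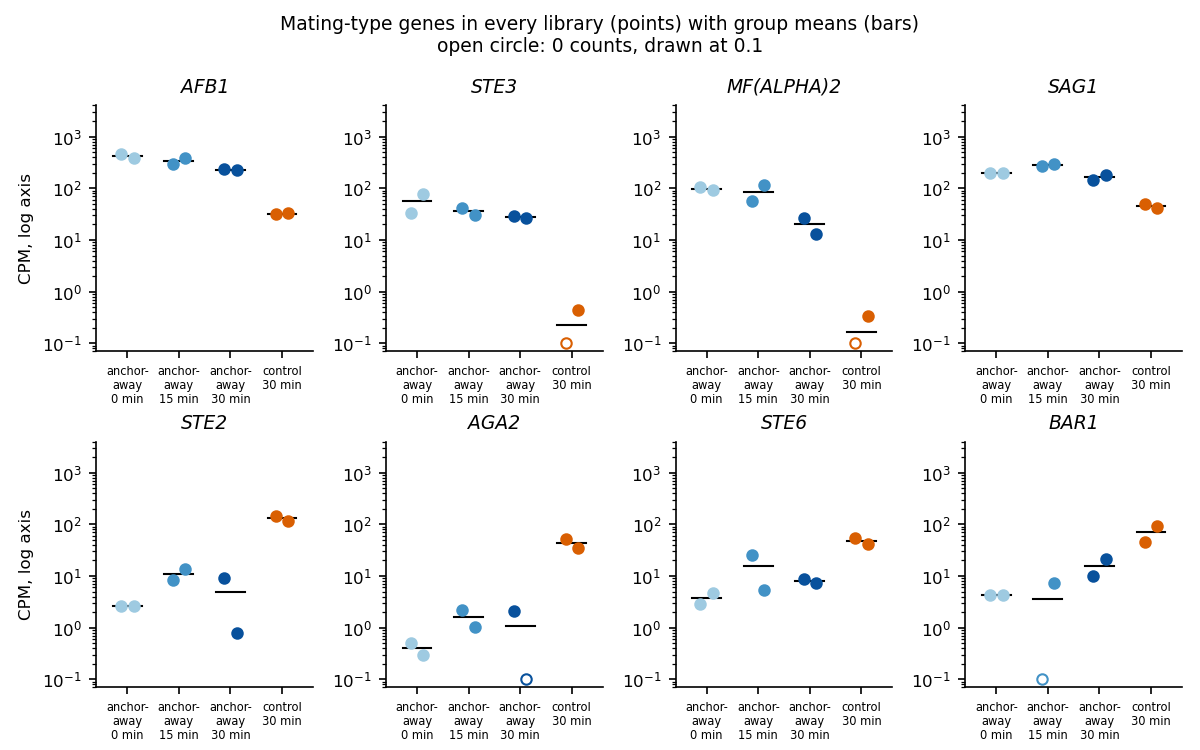
Levels of 8 mating-type genes in CPM on a log axis, 1 point per library and a bar at the group mean; an open circle stands for 0 counts and is drawn at 0.1. The 6 anchor-away libraries sit above the 2 control libraries for AFB1, STE3, MF(ALPHA)2 and SAG1 and below them for STE2, AGA2, STE6 and BAR1, at 0 min as at 30 min.

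Genes of transcript termination and nuclear decay were among the rises. NRD1 (chromosome XIV, 172588 to 174315), which encodes the RNA-binding subunit of the termination complex and limits its own transcript, had 484 and 520 CPM in anchor-away cells, against 125 and 163 CPM in control cells. The groups were far apart, by 1.80 ± 0.26 on the log2 scale (edgeR adjusted p = 0.00077), and the strain had 142 and 107 CPM at 0 min. HRP1 (chromosome XV, 87844 to 89448), a cleavage factor that marks poly(A) sites, had 1249 and 1226 CPM in anchor-away cells, against 467 and 388 CPM in control cells (log2 1.53 ± 0.24, edgeR adjusted p = 0.0012). Its level was 410 and 416 CPM at 0 min, close to the control. TRF5 (chromosome XIV, 66517 to 68445), a poly(A) polymerase of TRAMP, had 153 and 160 CPM in anchor-away cells, against 47.7 and 29.8 CPM in control cells (log2 2.02 ± 0.36, edgeR adjusted p = 0.0031). NRD1, HRP1 and TRF5 were called in each of the 20 alternatives.

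Of 3 partners of these proteins 1 passed. NAB3, the other RNA-binding subunit of the termination complex, had 210 and 279 CPM in anchor-away cells, against 375 and 386 CPM in control cells (log2 -0.64 ± 0.25, edgeR adjusted p = 0.143). MTR4, the helicase of TRAMP, had 114 and 86.4 CPM in anchor-away cells, against 58.4 and 86.1 CPM in control cells, with edgeR adjusted p = 0.449. RNA14, a subunit of the cleavage factor that works with Hrp1, rose to 34.1 and 16.2 CPM in anchor-away cells, against 0.686 and 1.12 CPM in control cells (log2 4.78 ± 1.19, edgeR adjusted p = 0.023). That call was lost without anchor-away replicate 1 (log2 4.15), control replicate 1 (log2 4.47) or control replicate 2 (log2 5.25). In the list of nuclear decay and termination factors 2 of 23 tested features rose and none fell, and in the cleavage and polyadenylation list 2 of 20 rose and none fell (1 without control replicate 1), against 1.31% rises over all tested features. Of 8 tested genes, namely NAB2 itself and those for its import receptor and pore partners, none passed, against 6.07% of all tested features called.

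NRD1 and HRP1 belong to a list of genes described as limited by Nrd1-dependent early termination. Of its 9 tested members those 2 rose and none fell, against 1.31% rises and 4.77% falls over all tested features, and the list median was 0.21. Both anchor-away libraries lay above both control libraries in 4 members and below in 3, against 23% and 24.2% of all tested features. With 1 library left out at a time, the list median ran from -0.25 to 0.42. Whether the other members differed from NRD1 and HRP1 was not tested. IMD3, an enzyme of guanine nucleotide synthesis, had 384 and 408 CPM in anchor-away cells, against 529 and 613 CPM in control cells (log2 -0.53 ± 0.24, edgeR adjusted p = 0.217). URA2 and URA8, enzymes of pyrimidine nucleotide synthesis, had log2 fold changes of -0.48 ± 0.26 and -1.01 ± 0.42 (edgeR adjusted p = 0.299 and 0.17). CLN3, the G1 cyclin, had 273 and 314 CPM in anchor-away cells, against 119 and 217 CPM in control cells (log2 0.80 ± 0.29, edgeR adjusted p = 0.109).

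Noncoding RNAs made up more of the counts. Cryptic unstable transcripts (CUTs), short RNAs that the nuclear exosome normally removes, took 0.198% and 0.167% of counts in anchor-away cells, against 0.0423% and 0.0575% in control cells. The mean share was 3.65 times the control mean, and the 0 min libraries had 0.0570% and 0.0596%. Stable unannotated transcripts (SUTs) took 0.451% and 0.378% in anchor-away cells, against 0.245% and 0.222% in control cells. Spliceosomal snRNAs took 2.26% and 2.65% in anchor-away cells, against 1.54% and 0.887% in control cells, and snoRNAs 0.492% and 0.471%, against 0.274% and 0.298%. For each of these 4 classes the groups did not overlap, and with 2 libraries a side the smallest p of an exact permutation test is 0.33. Transcripts of open reading frames (ORFs) took 90.0% and 90.5% in anchor-away cells, against 94.3% and 93.0% in control cells. In bulk RNA a larger share and a loss of the rest cannot be told apart, nor can fewer cells of a type and less RNA per cell.

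**Figure D2:**
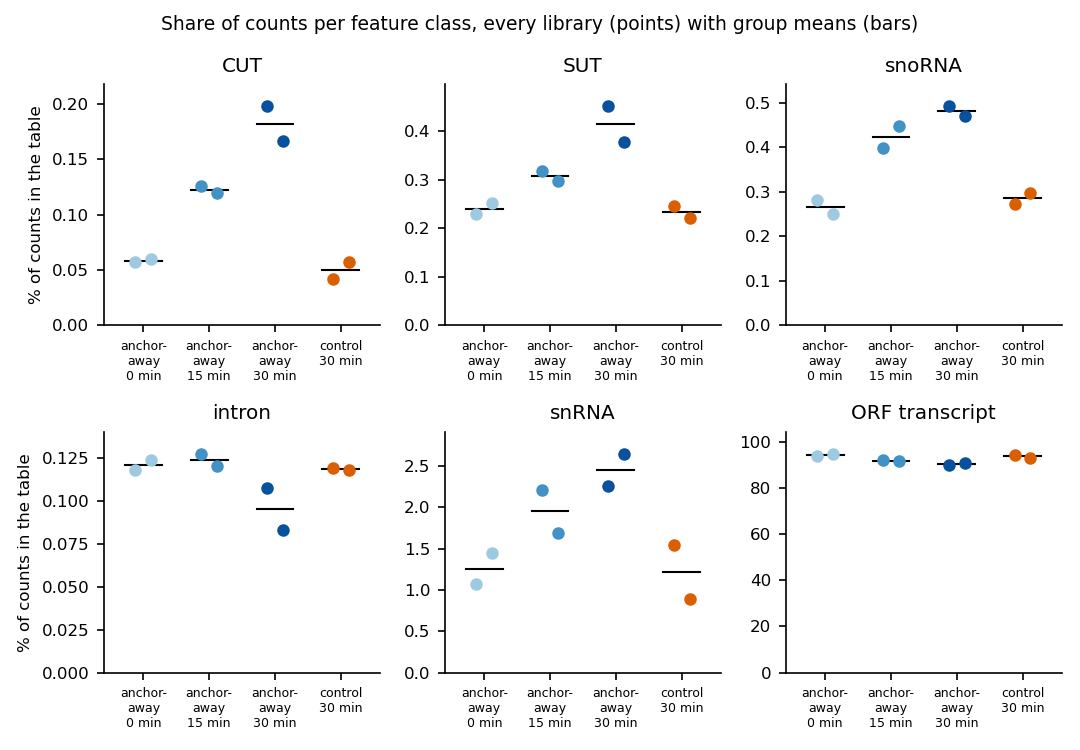
Share of all counts in 6 feature classes, in percent, 1 point per library with a bar at the group mean. CUTs averaged 0.182% at 30 min of anchor-away and 0.0499% in the control, and the 15 min libraries lay between at 0.126% and 0.119%.

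Few single noncoding features passed. Of 323 tested CUTs 3 rose and none fell, 0.929%, beside 6.07% of all tested features called in either direction, while the median log2 fold change over those CUTs was 1.62. Both anchor-away libraries lay above both control libraries in 96 tested CUTs and below in 3, against 23% and 24.2% of all tested features. A CUT with 0 counts in a control library could not lie below, nor one with 0 in an anchor-away library above. Control replicate 1 had counts in 100 of 925 CUTs and anchor-away replicate 2 in 177, so the split depends on detection. CUT377 had 49.2 and 39.1 CPM in anchor-away cells, against 3.09 and 7.17 CPM in control cells (log2 3.10 ± 0.60, edgeR adjusted p = 0.0046). CUT557 had 53.2 and 61.1 CPM in anchor-away cells, against 4.00 and 10.9 CPM in control cells (edgeR adjusted p = 0.0097). Its call was lost without control replicate 1 (log2 2.38). CUT866 had summed counts of 351 in anchor-away and 4 in control libraries, a ratio of 92.1 (95% interval 35.6 to 340). Its call was lost without anchor-away replicate 1 (log2 6.15), anchor-away replicate 2 (log2 6.54), control replicate 2 (log2 5.47) or 15 min replicate 1 (log2 6.44).

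The median over CUTs changed sign with the libraries used. Counts above 0 were found in 666 and 177 of 925 CUTs in the anchor-away libraries, against 100 and 477 in the control libraries. The median log2 fold change was -2.47 without anchor-away replicate 1 and 6.16 without control replicate 2. With summed counts, and CUTs at 3 or fewer counts in a group set to 3, the median over 560 CUTs was 1.48. Without control replicate 2, 8 CUTs rose. In 241 of the 560 the control libraries were at that floor, and in 25 the anchor-away libraries were. The summed share above adds the CUTs detected in each library, and its 4 values kept the groups apart. In each group the library with fewer CUTs detected had the lower share. These were 0.167% against 0.198% in anchor-away cells and 0.0423% against 0.0575% in control cells. The part of detection in the share was not tested.

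Among other noncoding features, SUT198 had 45.0 and 121 CPM in anchor-away cells, against 0.343 and 2.13 CPM in control cells. Its log2 fold change was 6.05 ± 0.86 (edgeR adjusted p = 0.00077), and summed counts gave a ratio of 54.8 (95% interval 36.0 to 87.8). SUT445 had 67.3 and 143 CPM in anchor-away cells, against 9.95 and 20.4 CPM in control cells (log2 2.79 ± 0.53, edgeR adjusted p = 0.0044). Of 507 tested SUTs 4 rose and 2 fell, 1.18% against 6.07% of all tested features, and 18 rose without control replicate 2. snR86, a snoRNA gene, had 697 and 321 CPM in anchor-away cells, against 120 and 140 CPM in control cells (log2 1.97 ± 0.44, edgeR adjusted p = 0.0201). The snR86 call was lost without anchor-away replicate 1 (log2 1.31), control replicate 1 (log2 1.85) or control replicate 2 (log2 2.16). The U5 snRNA feature snR7-L/snR7-S had 73.4 and 101 CPM in anchor-away cells, against 17.5 and 28.2 CPM in control cells (edgeR adjusted p = 0.0102), and its call was lost without control replicate 1 (log2 1.62). LSR1, the U2 snRNA, held most snRNA counts and did not pass (log2 0.67 ± 0.30, edgeR adjusted p = 0.218).

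Intron features took 0.108% and 0.0830% of counts in anchor-away cells, against 0.119% and 0.118% in control cells. The median log2 fold change over 71 tested introns was 1.12, so that the summed share and the median differed in sign. That median was -1.16 without anchor-away replicate 1, 4.67 without control replicate 2 and -0.61 over the 21 introns with a mean of at least 50 counts, so its sign was not stable. The 2 called introns both fell. The HAC1 intron had 238 and 206 CPM in anchor-away cells, against 465 and 737 CPM in control cells (log2 -1.43 ± 0.27, edgeR adjusted p = 0.0044). HAC1, which encodes the transcription factor of the unfolded protein response and is spliced in the cytoplasm, was counted with the overlapping YFL032W. That composite had 1219 and 1640 CPM in anchor-away cells, against 3839 and 5066 CPM in control cells (log2 -1.64 ± 0.28, edgeR adjusted p = 0.0026). The HAC1 intron call was lost without control replicate 2 (log2 -1.0). The other was the RPL17A intron, with 25.5 and 24.8 CPM in anchor-away cells, against 76.7 and 73.2 CPM in control cells (log2 -1.57 ± 0.42, edgeR adjusted p = 0.0317). That call was lost without any 1 of the 4 libraries, with log2 values between -1.60 and -1.54, and without 0 min replicate 1 (-1.50), 15 min replicate 1 (-1.50) or 15 min replicate 2 (-1.50).

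Chaperone genes rose in part. HSP42, a small heat shock protein that gathers misfolded proteins, had 215 and 390 CPM in anchor-away cells, against 64.3 and 77.8 CPM in control cells (log2 2.09 ± 0.32, edgeR adjusted p = 0.00087). BTN2, which sorts protein aggregates, had 122 and 58.2 CPM in anchor-away cells, against 1.03 and 3.25 CPM in control cells (log2 5.39 ± 0.86, edgeR adjusted p = 0.002). SSE2, an exchange factor of Hsp70, had 66.2 and 77.7 CPM in anchor-away cells, against 11.5 and 25.4 CPM in control cells (edgeR adjusted p = 0.024). The SSE2 call was lost without anchor-away replicate 2 (log2 1.82) or control replicate 1 (log2 1.49). Without the libraries of over 20% zeros, which left no replicates in either group compared, SSE2 (log2 1.36) and BTN2 (log2 5.21) were not called. HSP104, the disaggregase, did not pass (log2 0.79 ± 0.29, edgeR adjusted p = 0.118). The mitochondrial chaperones HSP10 and SSC1 fell. HSP10 had 69.4 and 92.6 CPM in anchor-away cells, against 291 and 353 CPM in control cells (log2 -1.99 ± 0.30, edgeR adjusted p = 0.00077), while the SSC1 call (log2 -1.01 ± 0.25, edgeR adjusted p = 0.022) was lost without anchor-away replicate 1 (-0.85), control replicate 1 (-1.05), control replicate 2 (-0.91), 15 min replicate 1 (-0.94) or 15 min replicate 2 (-0.94). In the chaperone list of 27 tested features 3 rose and 2 fell, against 1.31% rises and 4.77% falls over all tested features, and the median was 0.14.

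Several rises belonged to metabolism and the cell cycle. CIT1, the citrate synthase of mitochondria, had 438 and 692 CPM in anchor-away cells, against 154 and 104 CPM in control cells (log2 2.13 ± 0.32, edgeR adjusted p = 0.00086). The composite of CTR2, a vacuolar copper transporter, and YHR175W-A had 159 and 104 CPM in anchor-away cells, against 25.0 and 17.9 CPM in control cells (log2 2.61 ± 0.41, edgeR adjusted p = 0.0011). SIR4, a silencing protein, had 96.2 and 140 CPM in anchor-away cells, against 16.8 and 23.0 CPM in control cells (log2 2.57 ± 0.44, edgeR adjusted p = 0.0021). MCD1, the cohesin subunit that closes the ring, had 77.2 and 126 CPM in anchor-away cells, against 15.3 and 20.2 CPM in control cells (log2 2.52 ± 0.48, edgeR adjusted p = 0.0046). CIT1, the CTR2 composite, SIR4 and MCD1 were called in all 20 alternatives, and in none did the groups overlap.

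In the cell-cycle list 2 of 17 tested features rose, against 1.31% rises over all tested features, none fell, and the median was 0.67. The count was 1 without anchor-away replicate 2 or control replicate 1. CLB5, an S-phase cyclin, was the other rise (log2 2.31 ± 0.64, edgeR adjusted p = 0.0394). The CLB5 call was lost without anchor-away replicate 2 (log2 1.34), control replicate 1 (log2 2.33) or control replicate 2 (log2 2.34). RNR1, the large subunit of ribonucleotide reductase, had 740 and 822 CPM in anchor-away cells, against 478 and 507 CPM in control cells, and did not pass (log2 0.67 ± 0.23, edgeR adjusted p = 0.101). Among genes known to be repressed by glucose, or to act in that repression, 3 of 25 tested features rose, against 1.31% over all tested features, none fell, and the median was 0.71. The median of the glucose list was -0.01 without anchor-away replicate 1 and 3.28 without control replicate 2.

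The 3 risen members of the glucose list were a repressor, an activator and an enzyme. NRG1, a repressor, had 70.4 and 110 CPM in anchor-away cells, against 16.9 and 6.16 CPM in control cells (log2 2.97 ± 0.62, edgeR adjusted p = 0.0087), and its call was lost without control replicate 2 (log2 2.47). ADR1, the activator of peroxisomal genes, had 102 and 76.8 CPM in anchor-away cells, against 2.29 and 18.8 CPM in control cells (log2 3.08 ± 0.73, edgeR adjusted p = 0.0252). CTA1, the peroxisomal catalase, had 40.4 and 74.1 CPM in anchor-away cells, against 8.58 and 10.5 CPM in control cells (log2 2.58 ± 0.60, edgeR adjusted p = 0.0147). The ADR1 call was lost without anchor-away replicate 1 (log2 2.86), anchor-away replicate 2 (log2 3.26), 15 min replicate 1 (log2 3.17) or 15 min replicate 2 (log2 3.17). The CTA1 call was lost without anchor-away replicate 2 (log2 2.06) or control replicate 1 (log2 2.43).

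**Figure D3:**
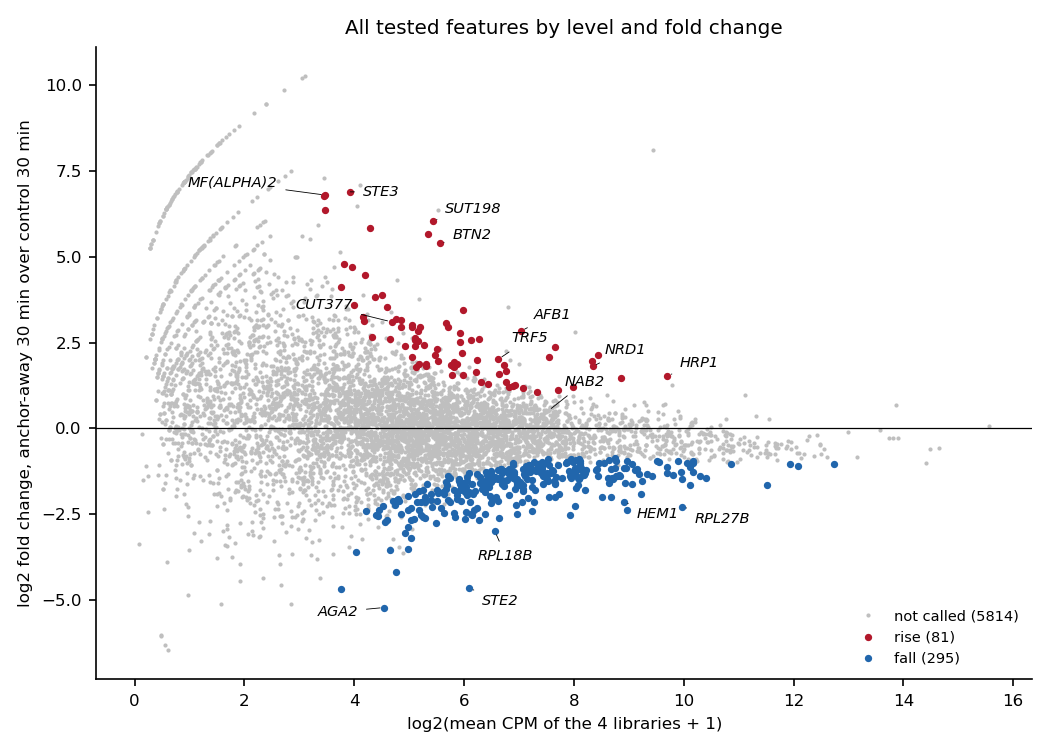
Log2 fold change, anchor-away over control at 30 min, against the mean level of the 4 libraries, 1 point per tested feature; red points are the 81 rises and blue points the 295 falls. NRD1, HRP1 and TRF5 lie among the rises and RPL27B, RPL18B and HEM1 among the falls, with the mating-type genes at both ends.

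Part of the ribosomal protein genes fell. RPL27B (chromosome IV, 1401770 to 1402564) had 322 and 363 CPM in anchor-away cells, against 1670 and 1661 CPM in control cells (log2 -2.28 ± 0.25, edgeR adjusted p = 0.00014). RPL18B had 24.0 and 17.4 CPM in anchor-away cells, against 196 and 136 CPM in control cells (log2 -2.99 ± 0.35, edgeR adjusted p = 0.00014). RPS14B had 140 and 189 CPM in anchor-away cells, against 603 and 698 CPM in control cells (log2 -1.99 ± 0.28, edgeR adjusted p = 0.00062). At 15 min all 3 genes lay between the groups, and RPL27B was at 1471 and 1250 CPM at 0 min and 1013 and 1138 CPM at 15 min. RPL27A and RPS14A, the other copies of RPL27B and RPS14B, had log2 fold changes of -0.54 ± 0.27 and -0.52 ± 0.29 and did not pass (edgeR adjusted p = 0.26 and 0.33). Reads that match both copies of a pair may have been split or dropped in counting, so values of single copies are uncertain to that extent.

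Of 130 tested ribosomal protein features 21 fell (16.2%) and none rose, against 4.77% falls over all tested features, and the median log2 fold change was -0.60 against 0.06. Both anchor-away libraries lay below both control libraries in 88 of the 130, against 24.2% of all tested features. Most of these genes are short and abundant. Length here is the span of the gene in the genome, introns included, and not that of the RNA. Among the more abundant ORF transcripts of at most 924 bases, 15 of 94 ribosomal protein genes fell, against 113 of 522 others (21.6%). The list's share of falls was thus not above that of other transcripts of this class. In the next class, 927 to 1437 bases, 6 of 30 ribosomal protein genes fell, against 64 of 583 others (11%). The falls were 14 of 78 large-subunit and 7 of 52 small-subunit features. Without 0 min replicate 1 or 2, 6 members rose, and 31 or 35 fell. By structure, 17 of 85 genes with an intron feature fell and 4 of 45 without one, with medians of -0.61 and -0.60. The count of falls ranged from 15 without control replicate 2 to 47 without anchor-away replicate 2, and was 13 without the 3 libraries of over 20% zeros, 1 of which is a 15 min library. RPS27A, with 102 and 221 CPM in anchor-away cells, against 942 and 745 CPM in control cells, fell by 2.39 ± 0.35 on the log2 scale (edgeR adjusted p = 0.0011). RPL3, a core protein of the large subunit with 1 gene, had 3853 and 5095 CPM in anchor-away cells, against 7606 and 8339 CPM in control cells, and did not pass (log2 -0.83 ± 0.28, edgeR adjusted p = 0.0865).

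Factors that build ribosomes gave fewer calls. Of 75 tested ribosome biogenesis features 7 fell and none rose, against 4.77% falls over all tested features, with a median of -0.28. The fall count was 2 without anchor-away replicate 2, 11 without anchor-away replicate 1, 3 without control replicate 1 and 4 without control replicate 2. Outside that list, SRP40, a nucleolar chaperone of snoRNP proteins, had 90.6 and 50.7 CPM in anchor-away cells, against 431 and 394 CPM in control cells (log2 -2.54 ± 0.30, edgeR adjusted p = 0.00014). EMG1, a methyltransferase of the small subunit, fell by 1.64 ± 0.29 on the log2 scale (edgeR adjusted p = 0.0028). HMO1, a protein of ribosomal gene promoters, had 217 and 290 CPM in anchor-away cells, against 713 and 594 CPM in control cells (log2 -1.37 ± 0.26, edgeR adjusted p = 0.0042). POP5, part of the RNase P and RNase MRP enzymes, had 4.54 and 2.90 CPM in anchor-away cells, against 37.7 and 51.4 CPM in control cells (log2 -3.56 ± 0.63, edgeR adjusted p = 0.0028).

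**Figure D4:**
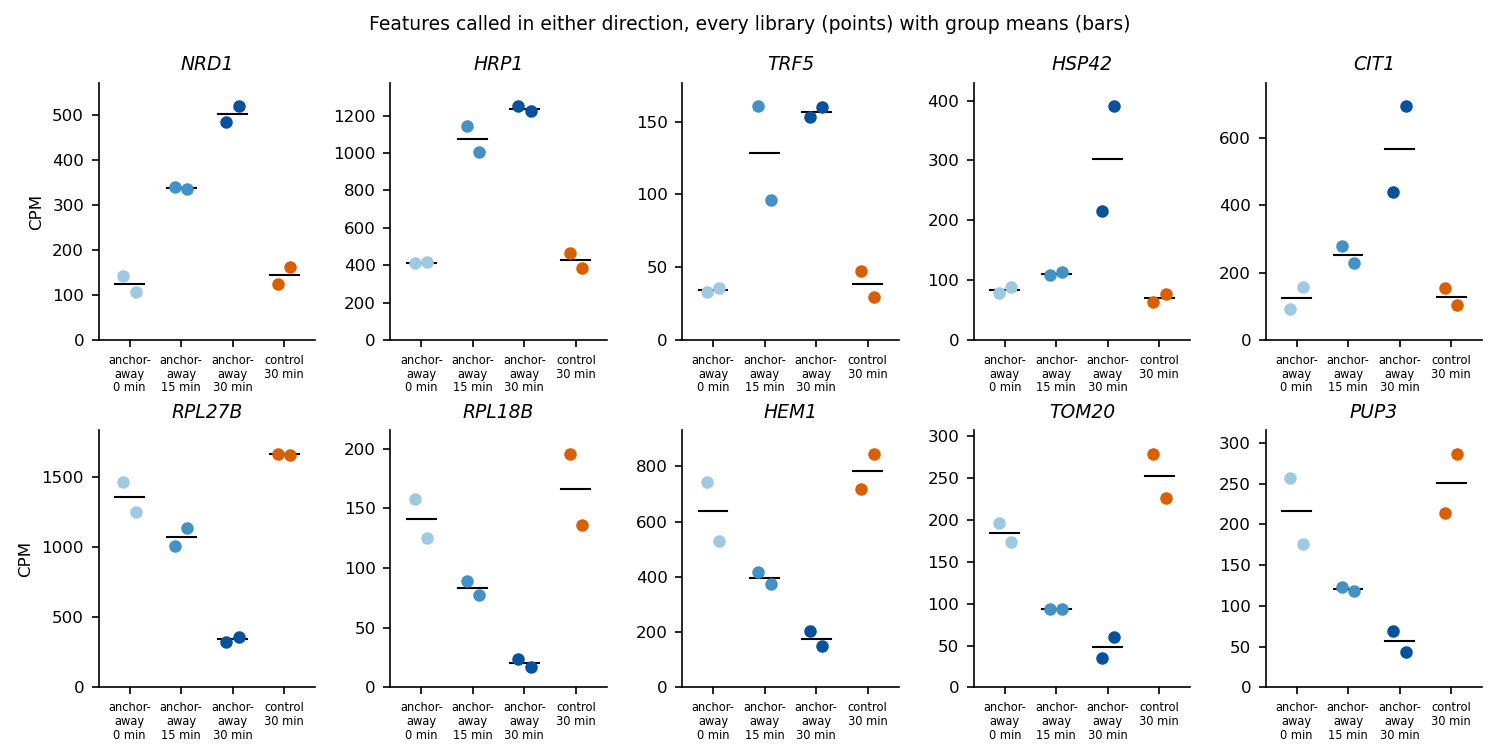
Levels in CPM of 5 features that rose and 5 that fell, 1 point per library and a bar at the group mean, on axes that start at 0. In NRD1, HRP1 and TRF5 the 0 min libraries lie near the control and the 15 min libraries above it; RPL27B, RPL18B, HEM1, TOM20 and PUP3 are lowest in the 30 min anchor-away libraries.

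Genes of mitochondrial protein import were among the falls. TOM20, the receptor of the outer mitochondrial membrane, had 35.4 and 60.5 CPM in anchor-away cells, against 279 and 226 CPM in control cells (log2 -2.40 ± 0.31, edgeR adjusted p = 0.00038). TOM6, a small subunit of the same pore, had 4.89 and 0.193 CPM in anchor-away cells, against 47.5 and 51.8 CPM in control cells (log2 -4.18 ± 0.86, edgeR adjusted p = 0.0087). TOM40, the channel, had 113 and 106 CPM in anchor-away cells, against 271 and 273 CPM in control cells (edgeR adjusted p = 0.0054). TIM9, a chaperone of the space between the membranes, fell by 2.00 ± 0.39 on the log2 scale (edgeR adjusted p = 0.005). In the mitochondrial import list 6 of 14 tested features fell and none rose, against 4.77% falls over all tested features, with a median of -1.17. The list was not matched for length, and 20.8% of the more abundant ORF transcripts of at most 924 bases fell. The count ranged from 4 without anchor-away replicate 1 or control replicate 1 to 8 without anchor-away replicate 2.

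Core subunits of the proteasome were among the falls. PUP3, a core subunit, had 69.5 and 43.3 CPM in anchor-away cells, against 214 and 287 CPM in control cells (log2 -2.15 ± 0.31, edgeR adjusted p = 0.00077). PUP1 and PUP2, further core subunits, fell by 1.43 ± 0.27 and 1.96 ± 0.38 on the log2 scale (edgeR adjusted p = 0.0042 and 0.0047). Of 14 tested core features 5 fell and none rose, against 4.77% falls over all tested features, with a median of -0.40, and of 18 tested features of the regulatory particle none passed, with a median of 0.17. Neither list was matched for length, and 20.8% of the more abundant ORF transcripts of at most 924 bases fell. The difference between the particles was not tested, and 2 regulatory features fell without 0 min replicate 2 or without the libraries of over 20% zeros. Without control replicate 1 there were 3 core falls. RPN4, the activator of proteasome genes, had 132 and 89.7 CPM in anchor-away cells, against 43.3 and 28.4 CPM in control cells (log2 1.63 ± 0.42, edgeR adjusted p = 0.0251). The RPN4 call was lost without anchor-away replicate 1 (log2 1.32) or control replicate 2 (log2 1.43), and without the libraries of over 20% zeros (log2 2.20).

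Of the enzymes of heme synthesis 3 fell. HEM1, the first enzyme, had 203 and 151 CPM in anchor-away cells, against 718 and 846 CPM in control cells (log2 -2.14 ± 0.27, edgeR adjusted p = 0.00028). HEM3 had 24.4 and 10.6 CPM in anchor-away cells, against 141 and 80.0 CPM in control cells (log2 -2.64 ± 0.48, edgeR adjusted p = 0.0035). HEM2 fell by 1.40 ± 0.30 on the log2 scale (edgeR adjusted p = 0.0096), and its call was lost without control replicate 2 (log2 -1.02). All 8 tested heme features had negative log2 fold changes, with a median of -1.0, and 5 had both anchor-away libraries below both control libraries, against 24.2% of all tested features. The heme, glycosylation, Arp2/3 and Sm-Lsm lists were drawn up after these values were seen, so their counts are a description only.

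The glycosylation list had 5 falls in 16 tested features, the actin-nucleating Arp2/3 list 3 in 7 and the Sm-Lsm list of splicing and decay rings 3 in 13, with no rises, against 4.77% falls over all tested features. These lists were not matched for length, and 20.8% of the more abundant ORF transcripts of at most 924 bases fell. PMT2, a mannosyltransferase of the endoplasmic reticulum, had 253 and 251 CPM in anchor-away cells, against 782 and 1103 CPM in control cells (log2 -1.90 ± 0.27, edgeR adjusted p = 0.00062), and PMT1 fell by 1.23 ± 0.24 on the log2 scale (edgeR adjusted p = 0.0047). ARC15, an Arp2/3 subunit, had 27.6 and 42.9 CPM in anchor-away cells, against 157 and 134 CPM in control cells (log2 -2.05 ± 0.36, edgeR adjusted p = 0.0028). LSM5 and SMX3, ring subunits, fell by 1.95 ± 0.37 and 2.59 ± 0.45 on the log2 scale (edgeR adjusted p = 0.0043 and 0.0025). The Arp2/3 count was 1 without control replicate 1, and the glycosylation count was 3 without anchor-away replicate 1, control replicate 1 or control replicate 2.

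Subunits of RNA polymerase II and histones were also among the falls. Neither list was matched for length, and 20.8% of the more abundant ORF transcripts of at most 924 bases fell. RPB11, a small subunit of RNA polymerase II, had 17.1 and 5.22 CPM in anchor-away cells, against 56.8 and 96.9 CPM in control cells (log2 -2.76 ± 0.52, edgeR adjusted p = 0.0042). RPB8 fell by 1.62 ± 0.31 on the log2 scale (edgeR adjusted p = 0.0043), and its call was lost without control replicate 2 (log2 -1.15). Of 11 tested polymerase subunits 3 fell and none rose, against 4.77% falls over all tested features, and the count was 1 without control replicate 2. HTZ1, the histone variant H2A.Z, had 10.3 and 20.9 CPM in anchor-away cells, against 86.1 and 69.1 CPM in control cells (log2 -2.33 ± 0.49, edgeR adjusted p = 0.0087). HHO1, the linker histone, fell by 1.67 ± 0.33 on the log2 scale (edgeR adjusted p = 0.0058), and its call was lost without control replicate 1 (log2 -1.34). In the histone list 3 of 10 tested features fell, against the same 4.77%, none rose, and the median was 0.03; without control replicate 1 the count was 1.

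Genes of nucleotide supply and salvage also fell. FUR1, which salvages uracil, had 76.0 and 100 CPM in anchor-away cells, against 486 and 366 CPM in control cells (log2 -2.28 ± 0.27, edgeR adjusted p = 0.00014). SML1, the inhibitor of ribonucleotide reductase, had 188 and 212 CPM in anchor-away cells, against 591 and 604 CPM in control cells (log2 -1.58 ± 0.26, edgeR adjusted p = 0.0016). DUT1, which removes dUTP, had 28.4 and 11.6 CPM in anchor-away cells, against 97.5 and 121 CPM in control cells (log2 -2.44 ± 0.45, edgeR adjusted p = 0.004). DIF1, which helps to import the small subunit of the reductase into the nucleus, fell by 2.15 ± 0.42 on the log2 scale (edgeR adjusted p = 0.0047). REX2, an exonuclease that trims RNA ends, had 22.5 and 18.8 CPM in anchor-away cells, against 111 and 154 CPM in control cells (log2 -2.68 ± 0.38, edgeR adjusted p = 0.00062). FUR1, SML1, DUT1, DIF1 and REX2 form no list of the study and were named after their values were seen.

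SOD1, the cytosolic superoxide dismutase, had 264 and 257 CPM in anchor-away cells, against 672 and 922 CPM in control cells (log2 -1.61 ± 0.27, edgeR adjusted p = 0.002). ILV5, an enzyme of branched-chain amino acid synthesis, had 663 and 795 CPM in anchor-away cells, against 1702 and 2282 CPM in control cells (log2 -1.45 ± 0.28, edgeR adjusted p = 0.0043). VTC1, a subunit of the polyphosphate polymerase, fell by 1.58 ± 0.30 on the log2 scale (edgeR adjusted p = 0.0041). RSM7, a small-subunit protein of the mitochondrial ribosome, had 20.4 and 20.7 CPM in anchor-away cells, against 100 and 134 CPM in control cells (log2 -2.51 ± 0.42, edgeR adjusted p = 0.0021). Of 65 tested genes of the mitochondrial ribosome 4 fell (6.15%) and none rose, near the 4.77% falls over all tested features, and the median was -0.47. That count was 7 without anchor-away replicate 1 or 2, and 2 without control replicate 1 or 2. In the glycolysis and galactose lists, with 20 and 5 tested features, none passed, against 6.07% of all tested features called. Composite features were left out of the lists, among them GAL7/GAL10, which rose and is described at the end.

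**Figure D5:**
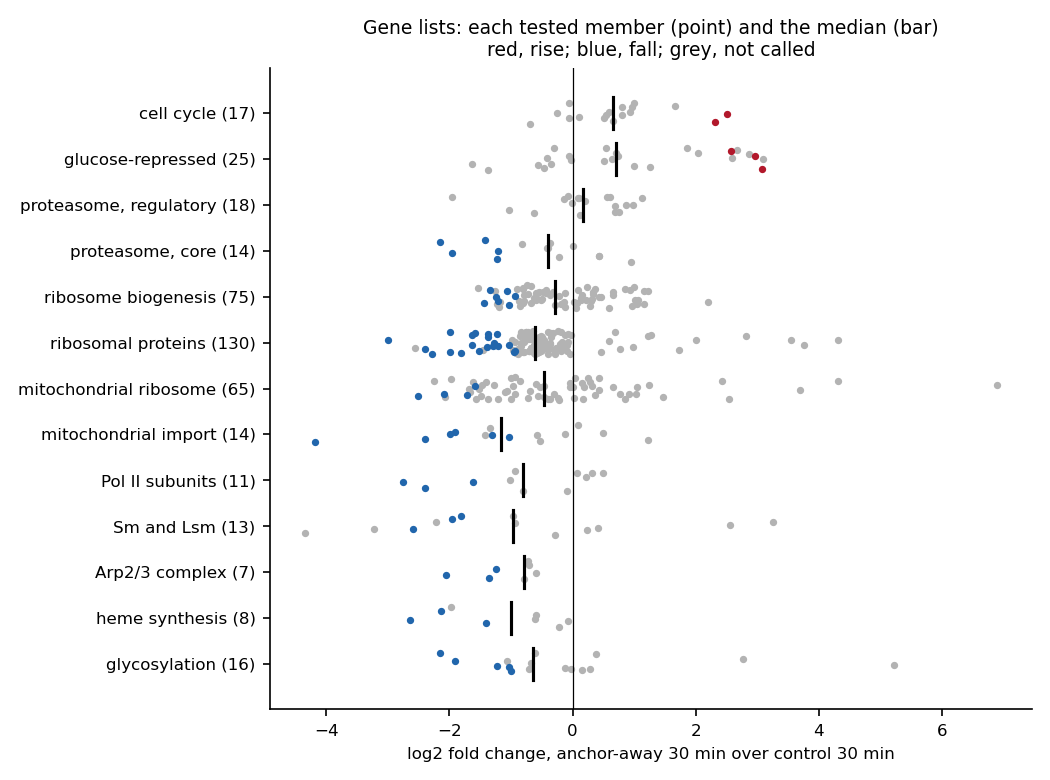
Log2 fold change, anchor-away over control at 30 min, of the tested members of 13 gene lists, 1 point per feature with a bar at the list median and the number tested in brackets. Called members of the ribosomal protein, mitochondrial import, core proteasome and heme lists lie to the left of 0, and those of the cell-cycle and glucose lists to the right.

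Called features differed in length, taken as the span of the gene in the genome, introns included. The 274 fallen ORF transcripts with a known length had a median of 846 bases and the 63 risen ones 1647 bases, against 1290 bases over all 4911 tested ORF transcripts with a length. Among the more abundant ORF transcripts, split by length into 4 classes of nearly equal number, 20.8% of the shortest class (114 to 924 bases, 616 transcripts) and 2.45% of the longest (up to 14733 bases, 613 transcripts) fell. Each library was set against the control mean on log2(CPM + 1) in these classes. The median over the shortest class was -0.89 in anchor-away replicate 1 and -0.44 in replicate 2, and over the longest class 0.07 and 0.19. The 2 control libraries deviated by -0.04 to 0.04 in every class. Their own mean was the reference, so these values mirror each other by construction and give no separate measure of spread. At 0 min the shortest class had medians of -0.02 and -0.28, and at 15 min of -0.32 and -0.31. The part of RNA length or RNA quality in these falls was not tested. Apart from the ribosomal proteins, no list was set beside transcripts of like length.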

How the data were processed

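Total RNA of yeast was depleted of ribosomal RNA and sequenced strand-specifically, per the labels' protocols. The authors deposited raw counts per feature; tools listed per the submitters' processing notes, roles not given, were HTSeq 0.5.3, GSNAP 2012-01-11 and bedtools 2.17.0, and the build was R64. Repeated and overlapping duplicate entries were removed, leaving 7659 of 7711 features. An S. pombe spike-in was added per the labels, but 0 spike-in features stood in the table used here, so counts were scaled by TMM and absolute RNA amounts were not measured. Library totals ran from 4832946 to 17022934 counts, and intervals cover counting error only.

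All 8 libraries were fitted in edgeR 4.0.16 (R 4.3.3) after filterByExpr, with 1 term per group. Calls required a Benjamini-Hochberg adjusted p under 0.05 over 6190 features, from the quasi-likelihood test of the 30 min contrast. DESeq2 1.42.0 and limma 3.58.1 served as alternatives among 20. The fit was tested on simulated data. For anchor-away 30 min replicate 2, title and description disagree on the replicate number, and the description was followed. Members and lists were chosen with earlier results of these data known. Genes named were those of the anchor system, the 15 largest rises and falls with a mean of at least 50 counts and groups that did not overlap, the 10 ORF transcripts of smallest p in each direction, and per list or class the called members, the 3 of smallest p and the most abundant; of these the text gives those it describes, and it names some others after their values were seen.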

Additional observations from a re-analysis of the deposited data

How the results depend on the processing

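The 376 calls, 81 rises and 295 falls, moved with the scaling. Total library size gave 164 rises and 149 falls, upper-quartile factors 96 and 200, and snoRNA factors 901 calls, 50 rises and 851 falls, with a median over all features of -0.34. Without a filter there were 643 calls and 238 rises, and DESeq2 gave 700 calls and 285 rises. With a mean of at least 50 counts the CUT median was 2.54. Without the libraries of over 20% zeros 41 features rose. Leaving out 1 library at a time gave 243 to 603 calls, 35 to 165 rises and 165 to 442 falls, with a median of -0.20 to 0.27 over all features and -2.47 to 6.16 over CUTs. Deviations of the replicate 1 libraries from their group means correlated with r = -0.0758 between anchor-away and control at 30 min. With 2 libraries per group, this cannot decide whether the replicate numbers pair the samples. The replicate block gave 399 calls. Of 92 named features 75 were called, 45 of them in all 20 alternatives, and none reversed. Leaving out the libraries of over 20% zeros left no replicates in either group compared. Among others, BTN2, CTA1, NRG1, SUT445, DIF1, HMO1, ILV5, PMT1, TOM40 and the HAC1 composite lost their calls in that setting. The causes were not tested. Detection limits the noncoding classes: 100 to 666 of 925 CUTs had counts in the 4 libraries, an order that did not follow total counts.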

Other observations

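A composite feature of the galactose genes GAL7 and GAL10 had summed counts of 299 in anchor-away and 3 in control libraries, a ratio of 105 with a 95% interval of 35.4 to 510 for counting error. The 5 tested features of the galactose list, which leaves out composites, all had negative log2 fold changes, with a median of -0.69, and none passed. GAL7/GAL10 rose with an edgeR adjusted p of 0.0383, and the call was lost without anchor-away replicate 2 (log2 6.33) or control replicate 1 (log2 5.82). SUT645 had 8.49 and 0.967 CPM in anchor-away cells, against 68.4 and 43.9 CPM in control cells (log2 -3.51 ± 0.76, edgeR adjusted p = 0.01), and its call was lost without control replicate 1 (log2 -3.18).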
